A study of Mus musculus with 14 samples.

Results

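The interleukin-6 family genes of these fibroblasts were taken as 10 genes fixed by name, and the rows carrying those symbols were read from both deposited tables of normalised counts. They were found as 10 of 43472 genes, and all 10 passed a minimum mean normalised count of 10 in each table. These genes and the pathway lists below were chosen with earlier results of these data known. The shares called among them are therefore a description only. The cells were primary fibroblasts from the tail tips of C57BL/6 mice, grown as a monolayer with fetal bovine serum and wounded by a scratch, so that every library, control or treated, came from wounded cells. The Untreated group was left without further addition, and the AMG-treated group received autologous micrograft (AMG), the soluble part of minced and filtered mouse skin, freed of cells and diluted in growth medium. Replicate 1 covered 1, 5, 12 and 24 h, with 1 library per group and time, and replicates 2, 3 and 4 covered 5 h only. The study described the fibroblasts as adult. The exact age and the sex of the mice and the number of mice behind a culture were not given. The p-values therefore measure the spread between these cultures.

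Cytokines of this family signal through receptor complexes that share gp130, the product of Il6st. Ligand binding activates JAK kinases bound to the receptors, which phosphorylate STAT3. STAT3 then enters the nucleus and switches on target genes, among them Socs3, whose product binds gp130 and JAK and shuts the signal down. In skin the family is known for its part in inflammation and in closing wounds, and fibroblasts are a known source of IL-6, LIF and IL-11. The list holds the ligands Il6, Lif, Il11, Clcf1 and Ctf1, the receptor chains Il6st, Lifr and Osmr, the transcription factor Stat3 and the inhibitor Socs3.

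The bases before the start sites are shown for the 4 members that held a match to one of 5 short motifs, since 3 of them were the ligands that rose with treatment at 5 h. RefSeq promoters (build GRCm38.p6, which has the coordinates of mm10) were given for 9 of the 10 members, in 11 windows of 250 bases. Clcf1 had no window and was not searched. The motifs searched on both strands were TGANTCA (AP-1), GGGNNTTTC (NF-kB), TTCNNNGAA (STAT), TTGNNCAA (C/EBP) and TGACGT (CRE), and capitals mark every match. The Il6 window is chr5:30012864-30013113 on the plus strand. The Lif window is chr11:4257318-4257556 on the plus strand, shown as 239 bases up to the annotated start of the gene. The Il11 window is chr7:4778142-4778391 on the minus strand, before the start of the shorter of its transcripts. The Socs3 window is chr11:117969367-117969616 on the minus strand. It lies before the RefSeq start but inside the annotated gene, which begins at 117970047.
Il6: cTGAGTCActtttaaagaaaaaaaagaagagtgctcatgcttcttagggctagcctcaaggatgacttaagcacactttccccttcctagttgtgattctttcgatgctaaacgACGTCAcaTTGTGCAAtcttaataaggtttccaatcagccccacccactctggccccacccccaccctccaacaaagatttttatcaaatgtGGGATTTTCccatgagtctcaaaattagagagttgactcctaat
Lif: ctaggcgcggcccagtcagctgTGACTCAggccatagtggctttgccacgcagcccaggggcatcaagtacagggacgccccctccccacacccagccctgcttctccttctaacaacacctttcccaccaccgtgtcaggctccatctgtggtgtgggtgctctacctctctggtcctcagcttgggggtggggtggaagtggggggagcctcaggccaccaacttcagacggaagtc
Il11: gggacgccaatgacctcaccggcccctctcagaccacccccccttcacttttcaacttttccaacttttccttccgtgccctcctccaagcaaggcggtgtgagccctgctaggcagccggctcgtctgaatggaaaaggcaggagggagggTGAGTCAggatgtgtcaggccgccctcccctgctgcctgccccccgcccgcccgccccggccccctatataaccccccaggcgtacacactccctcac
Socs3: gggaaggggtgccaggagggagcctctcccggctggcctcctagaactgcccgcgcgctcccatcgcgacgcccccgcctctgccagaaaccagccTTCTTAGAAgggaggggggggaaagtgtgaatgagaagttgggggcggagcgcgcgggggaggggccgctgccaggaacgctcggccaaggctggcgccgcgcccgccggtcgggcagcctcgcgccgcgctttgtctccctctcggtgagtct
The AP-1 motif was found in Il6 at 249 to 243 bases before the start, in Lif at 228 to 222 bases before the RefSeq start and in Il11 at 98 to 92 bases before the start. Il6 also held a CRE motif on the minus strand at 136 to 131 bases, a C/EBP motif at 128 to 121 bases and an NF-kB motif at 44 to 36 bases before its start. Socs3 held a STAT motif at 154 to 146 bases before its RefSeq start, inside the annotated gene. No 2 matches overlapped. Among 32851 mouse promoters of the same length, 6.75% held the AP-1 motif, 3.72% the NF-kB motif, 7.02% the STAT motif, 5.65% the C/EBP motif and 6.47% the CRE motif. These letters were not in the windows of Ctf1, Stat3, Il6st, Osmr and Lifr, nor before the upstream start of Il11. A match describes the letters of a window, and binding was not measured here.

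Depth ranged from 12545537 to 34696529 gene-assigned reads per library, and 3 reads, taken as the detection floor, were worth 1.62 to 5.22 normalised counts. Untreated 5h replicate 1 and AMG-treated 1h replicate 1 stood apart, with 7.0% and 5.10% of their reads in 88 ribosomal protein genes against 2.27% to 3.47% in the other libraries. In the pairs holding these libraries the treated to untreated ratio of a gene moved with its transcript length (Spearman rho across genes 0.48 at 5 h and -0.50 at 1 h, both in replicate 1), and in replicates 2 to 4 rho was -0.44 to -0.22. The part of length in the results was not tested. The ratios of the long receptor transcripts and of Stat3 are therefore also given after a correction that takes out, in each library, the trend with exon length over all genes. The normalised counts of fibroblast markers summed to 447915 to 626083 in the untreated and 350893 to 453679 in the treated libraries of replicates 2 to 4. Of these 10 markers, 0 passed the test described next in either direction, and 6 were lower once replicate numbers were used as a block. That block fit called 19.3% of all 13096 tested genes lower. Leukocyte markers summed to 167 to 1392 in the untreated and 212 to 1248 in the treated libraries, with 0 of 6 tested genes passing and Cd3e at 0 reads. Keratinocyte markers summed to 152 to 286 and 106 to 160, with Krt5, Krt14, Krt1 and Dsg3 at 0 reads, and endothelial markers to 16.8 to 239 and 8.91 to 116, with Emcn at 0 reads. Of these markers 0 of 2 and 0 of 1 tested genes passed, and with the block Dsp and Tek were lower. In replicate 1, over all times, leukocyte markers summed to 1156 to 1936 without and 390 to 1247 with AMG. Fibroblast markers summed there to 306109 to 398044 and 217892 to 313667. Keratinocyte markers summed to 290 to 748 and 281 to 543, and endothelial markers to 57.4 to 111 and 34.0 to 59.1. A difference in cell types between the groups of replicate 1 was not tested.

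The question at 5 h was which family transcripts differed between treated and untreated wounded fibroblasts. In replicates 2 to 4, 3 ligands rose with AMG, namely Lif, Il6 and Il11, and none of the 10 genes fell (limma on log2(normalised count + 1), adjusted p under 0.05). Unadjusted p was under 0.05 for Il6st (0.0302) and Stat3 (0.0211), both lower, and DESeq2 and edgeR without a block also called 0 members lower. The same limma fit called 0.970% of the 13096 tested genes higher and 0.267% lower. The groups did not overlap for 5 members that were higher (Il6, Lif, Il11, Clcf1 and Socs3) and 1 that was lower (Stat3), against 15.1% and 13.6% of all tested genes. The median log2 fold change of the 10 genes was 0.45, beside -0.02 over all tested genes. The replicate numbers paired the libraries, and with the replicate number as a block 5 members were higher and 3 lower, where 17.9% and 19.3% of all tested genes were called. The 3 of 10 members that were lower under the block stood beside that background of 19.3%, and nothing is read from them as a group.

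Lif, which encodes leukemia inhibitory factor, changed most firmly. Its normalised counts were 179, 132 and 123 in the untreated libraries of replicates 2, 3 and 4 and 18483, 7090 and 25307 in the treated ones. The lowest treated library was thus far above the highest untreated one. The mean was 145 ± 30.1 without and 16960 ± 9204 with AMG (SD, n = 3), a log2 fold change of 6.69 (SE 0.45, limma adjusted p = 0.00567). The call was lost only without AMG-treated 5h replicate 2 (adjusted p = 0.0703) and held under the other 19 of 20 alternatives. Lif lies on chromosome 11 (mm10, 4257557 to 4272514, plus strand).

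Il6, which encodes the founding cytokine of the family, was near the floor in 2 of the 3 untreated cultures. Untreated replicates 2, 3 and 4 had 3.30, 25.1 and 0.541 normalised counts, which were 3, 18 and 1 reads, and the treated libraries had 388, 1188 and 438. Replicate 3 was the highest in both groups. The log2 fold change was 6.72 (SE 1.01, limma adjusted p = 0.0402), on a scale with 1 added that understates changes of low genes. Within replicates the ratio was 118 (95% counting interval 39.9 to 573) in replicate 2, 47.4 (29.9 to 80.2) in replicate 3 and 810 (145 to 32084) in replicate 4, so the size of the change was poorly fixed where 1 to 3 untreated reads stood below it. Each treated library differed from the untreated library of the same replicate number by more than the counting error. The call was lost without AMG-treated replicate 2 (adjusted p = 0.177), AMG-treated replicate 4 (0.170), Untreated replicate 2 (0.175) or Untreated replicate 4 (0.102), and was 1.30e-05 with the replicate block. Il6 lies on chromosome 5 (30013114 to 30019981, plus strand).

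Il11 encodes interleukin-11, a cytokine known in fibroblasts for its link to fibrosis. Its normalised counts were 585, 645 and 197 without AMG and 6040, 4417 and 2552 with AMG. Replicate 4 was the lowest in both groups, and the groups were well apart. The mean went from 476 ± 243 to 4336 ± 1745 (SD, n = 3), a log2 fold change of 3.28 (SE 0.51, limma adjusted p = 0.0414). The call was lost when any library but AMG-treated replicate 3 was left out, with adjusted p from 0.0578 (without Untreated replicate 3) to 0.194 (without AMG-treated replicate 2), with Untreated replicates 2 and 4 at 0.130 and 0.0867 and AMG-treated replicate 4 at 0.120. The call held with the replicate block (adjusted p = 1.83e-06). The gene lies on chromosome 7 (4772373 to 4782859, minus strand).

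Clcf1 encodes cardiotrophin-like cytokine factor 1, a ligand of the ciliary neurotrophic factor receptor. It had 1919, 1475 and 975 normalised counts in the untreated libraries and 5570, 2181 and 2455 in the treated ones. The groups did not overlap, but AMG-treated replicate 2 alone lay far above the rest. The log2 fold change was 1.14 (SE 0.40) and did not pass (limma adjusted p = 0.163). It passed with the replicate block (adjusted p = 0.00110). The gene overlaps AC109138.7 on the same strand and Gm26115 on the other (chromosome 19, 4214238 to 4223490), and the strand setting of the counting was not given, so its counts are uncertain to that extent.

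Ctf1, which encodes cardiotrophin-1, was the ligand with the fewest reads in the treated cells. Its normalised counts were 58.3, 62.7 and 26.5 without and 39.4, 50.8 and 29.4 with AMG, and the groups overlapped. The log2 difference was -0.24 with a 95% interval of -1.25 to 0.78 (limma adjusted p = 0.775), so neither a halving nor a modest rise could be told from no change. Ctf1 overlaps Ctf2 on the opposite strand (chromosome 7, 127712736 to 127718192).

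**Figure D1:**
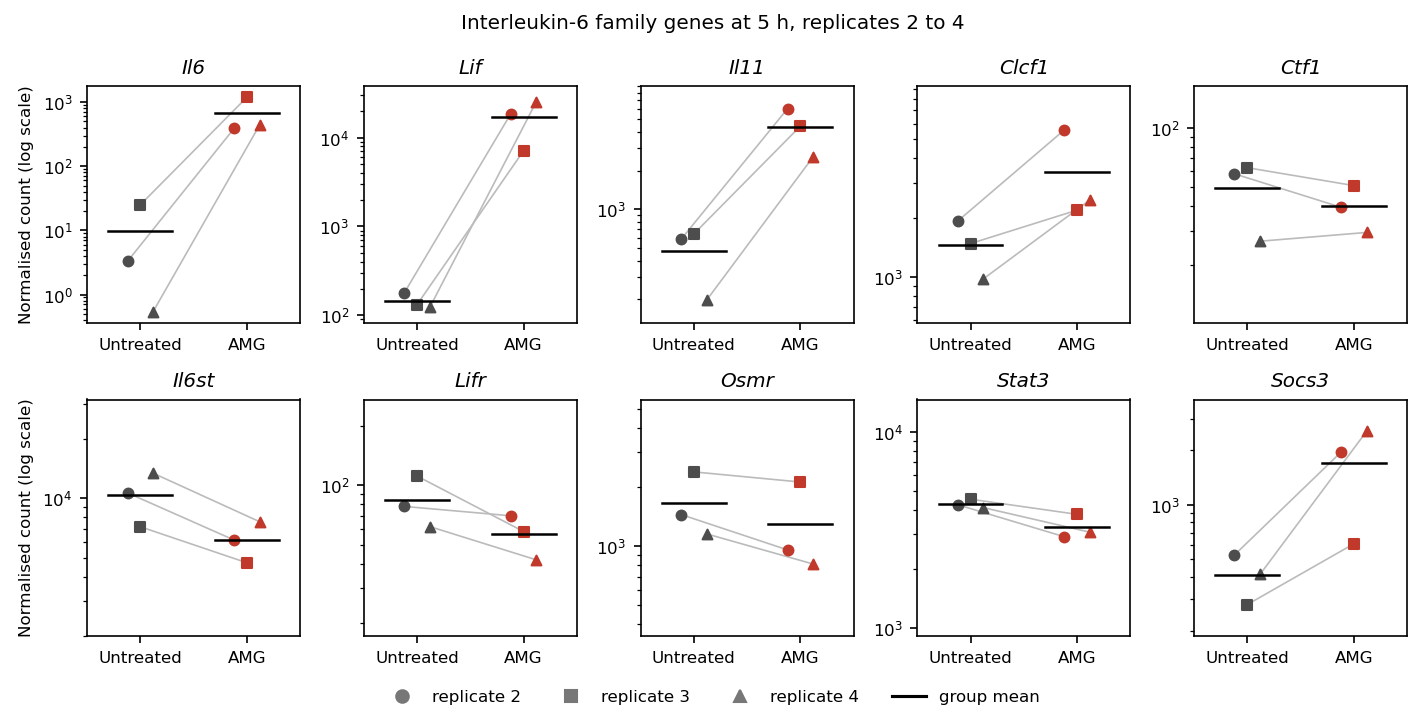
Normalised counts (log scale) of the 10 genes at 5 h in Untreated and AMG-treated libraries of replicates 2 to 4, with lines joining libraries of the same replicate number and bars at the group means (n = 3). Il6, Lif, Il11, Clcf1 and Socs3 were higher in each treated library than in any untreated one, and the receptor genes overlapped between groups.

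Among the receptor chains none passed the unblocked test. Il6st, the gp130 chain common to the family, had 10665, 7174 and 13430 normalised counts without AMG and 6143, 4708 and 7609 with AMG. Each treated library was below the untreated one of the same number, and the groups overlapped only through Untreated replicate 3 and AMG-treated replicate 4. The log2 fold change was -0.74 (SE 0.27, 95% interval -1.39 to -0.09, limma adjusted p = 0.177). The adjusted p with the replicate block was 0.000525, and with block and length correction together the log2 fold change was -0.42 (adjusted p = 0.00287).

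Osmr, the oncostatin M receptor chain, had 1448, 2384 and 1154 normalised counts without and 957, 2118 and 811 with AMG. Replicate 3 was the highest in both groups, and the spread between replicates was larger than the difference. The log2 fold change was -0.43 (95% interval -1.40 to 0.55, limma adjusted p = 0.562), and the block gave an adjusted p of 0.0144. That call was lost with block and length correction together (-0.23, adjusted p = 0.0655). Lifr, the receptor chain bound by LIF, was low, at 78.1, 111 and 61.7 without and 70.0, 58.2 and 41.8 with AMG, and the groups overlapped. Its log2 fold change was -0.54 (95% interval -1.33 to 0.24), with a limma adjusted p of 0.358 and of 0.107 with the block.

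Stat3 encodes the main transcription factor of the pathway. It was measured at 4247, 4532 and 4107 without and 2921, 3797 and 3081 with AMG. Every treated library lay below every untreated one, by a small margin. The log2 fold change of -0.40 (SE 0.14) did not pass (limma adjusted p = 0.154), passed with the replicate block (0.00898), and passed without AMG-treated replicate 3 (-0.52, adjusted p = 0.0320). With block and length correction together it was -0.18 and did not pass (adjusted p = 0.0902), and leaving out any other library gave an adjusted p of 0.292 to 0.391. Stat3 overlaps Stat5a on the opposite strand (chromosome 11, 100885098 to 100939540).

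Socs3 encodes the feedback inhibitor of gp130 signalling. Its normalised counts were 529, 281 and 413 without and 1957, 609 and 2550 with AMG. The groups did not overlap, with replicate 3 the lowest in both. The mean was 408 ± 124 without and 1705 ± 995 with AMG (SD, n = 3), a log2 fold change of 1.87 (SE 0.53, 95% interval 0.61 to 3.14). The limma adjusted p was 0.118, and 0.000481 with the replicate block. Without AMG-treated replicate 3, the library with the weakest change, it was 0.00873 at a log2 fold change of 2.50, and without any other library it was 0.230 to 0.338, with log2 fold changes down to 1.47. Socs3 lies on chromosome 11 (117966079 to 117970047, minus strand).

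Compared per kilobase of exon, the transcripts changed places between the groups at 5 h. In untreated cells the mean level was highest for Il6st (950 ± 286 normalised counts per kb, SD, n = 3), Clcf1 (789 ± 256) and Stat3 (690 ± 34.8), whose ranges overlapped in turn. Osmr (303 ± 117), Il11 (229 ± 117) and Socs3 (160 ± 48.6) followed as a second overlapping run, then Lif (35.8 ± 7.42) and Ctf1 (34.4 ± 13.8), and last Lifr (8.06 ± 2.44) and Il6 (3.97 ± 5.53). In treated cells Lif came first at 4187 ± 2272, followed by Il11 (2084 ± 839) and Clcf1 (1842 ± 1019), whose ranges overlapped in turn. Socs3 (668 ± 390), Il6st (561 ± 132), Stat3 (525 ± 74.9), Il6 (277 ± 185) and Osmr (236 ± 130) formed the next overlapping run. Ctf1 (27.9 ± 7.51) and Lifr (5.46 ± 1.36) were lowest and lay apart from each other. Lif therefore moved from place 7 to place 1 and Il6 from place 10 to place 7 among these transcripts. In these bulk cultures fewer cells of a type and less RNA per cell cannot be told apart.

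The 5 h comparison was repeated in replicate 1, whose untreated library is the one with the large ribosomal protein share, so ratios within each replicate were set side by side. The 5 genes Il6, Lif, Il11, Clcf1 and Socs3 were higher with AMG in all 4 replicates, where 15.7% of the 12844 genes at the minimum in both tables were, and Lifr was lower in all 4, where 16.0% were. The log2 ratio of Lif ranged from 5.73 to 7.67 (mean 6.51 ± 0.87, SD, n = 4) and that of Il6 from 4.54 to 8.16 (mean 6.18 ± 1.54). The spread of Il6 depended on the 1 added to each value, since with 10 added the ratios of replicates 1 to 4 were 4.20, 4.90, 5.09 and 5.41, and with 0.1 added that of replicate 4 was 9.42. That of Il11 ranged from 2.45 to 3.69, that of Socs3 from 1.11 to 2.62 and that of Clcf1 from 0.56 to 1.54. These 5 thus differed in size between replicates and not in direction.

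Il6st, Osmr and Stat3 behaved differently, since each was lower in replicates 2, 3 and 4 and higher in replicate 1. The log2 ratio of Il6st was 0.57 in replicate 1 and -0.80, -0.61 and -0.82 in the others. That of Osmr was 0.69 in replicate 1 and -0.60, -0.17 and -0.51 in the others, and that of Stat3 was 0.41 against -0.54, -0.26 and -0.41. After the length correction Il6st in replicate 1 was at -0.17 and Stat3 at -0.05, on the side of the other replicates, while Osmr stayed higher at 0.30. With that correction 3 members (Ctf1, Il6st and Stat3) were lower in all 4 replicates and Lifr was not, at 0.17 in replicate 2. After it 19.9% of 12248 genes were lower and 20.3% higher in all 4. All 5 higher members stayed higher in each replicate.

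**Figure D2:**
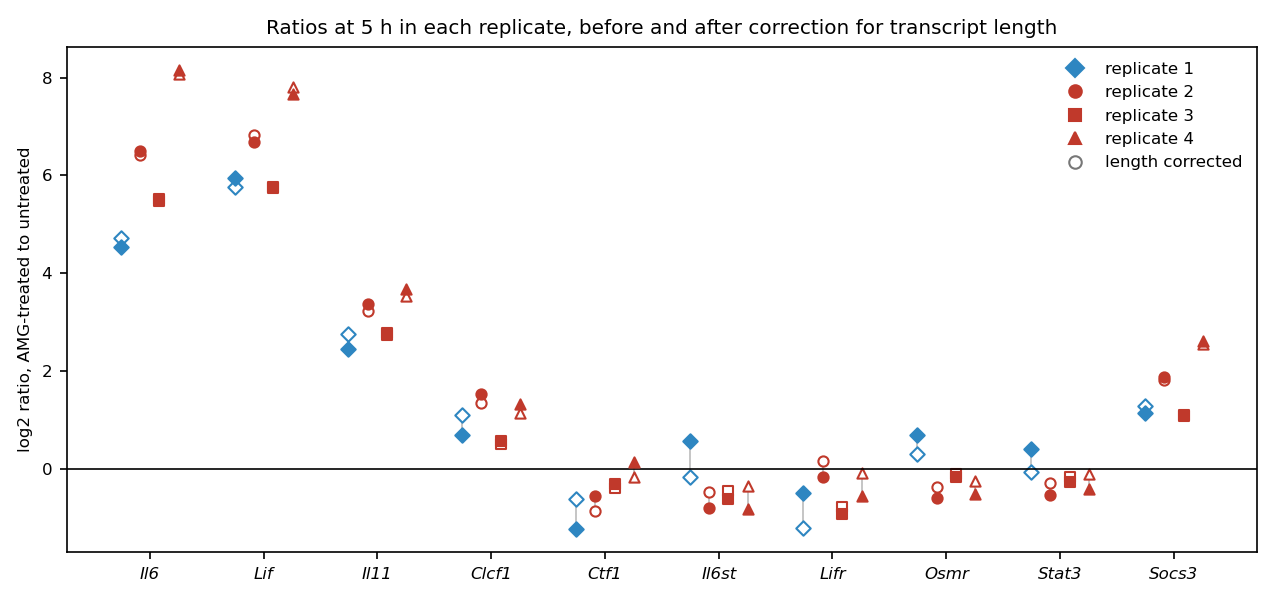
log2 ratio of AMG-treated to untreated at 5 h for each of the 10 genes in replicates 1 to 4 (filled symbols) and after correction for transcript length (open symbols). Il6, Lif, Il11, Clcf1 and Socs3 lie above 0 in all 4 replicates, and replicate 1 lies above 0 for Il6st, Osmr and Stat3 before the correction, unlike the other replicates.

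All 4 replicates were also fitted together with edgeR on the recovered whole reads, with the replicate number as a block. In that fit 5 members were higher and none lower at an adjusted p under 0.05, where 2.49% of all tested genes were called higher and 1.29% lower. The higher members were Lif (log2 fold change 6.55, adjusted p = 0.00142), Il11 (3.08, 0.00295), Il6 (5.99, 0.00633), Socs3 (1.71, 0.0275) and Clcf1 (1.04, 0.0480). For the other members the edgeR values were -0.41 for Il6st (adjusted p = 0.445), -0.19 for Stat3 (0.647), -0.14 for Osmr (0.802), -0.53 for Lifr (0.255) and -0.50 for Ctf1 (0.415). The 3 falls seen with the block in replicates 2 to 4 (Il6st, Osmr and Stat3) were therefore not called once replicate 1 was included. This fit was added after the data were seen.

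Replicate 1 shows the course from 1 to 24 h, without replicates and so without p-values, and the intervals cover counting error only. The untreated 5 h and treated 1 h libraries are those with the large ribosomal protein shares, and levels over time were not corrected for length. A log2 ratio above 1 was found for 5 members at 1 h (Il6, Lif, Il11, Clcf1 and Socs3), 4 at 5 h, 4 at 12 h and 3 at 24 h, where 11.3%, 13.3%, 5.93% and 6.05% of 13498 genes were above 1. A ratio below -1 was found for 0, 1, 1 and 2 members, where 10.7%, 12.6%, 6.90% and 8.05% of all genes were. The median of the 10 genes was 0.52, 0.70, -0.04 and -0.18 at the 4 times.

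Lif and Il6 were highest with AMG at 1 h and stayed above the controls to 24 h. Lif had 18520, 5141, 4485 and 2935 normalised counts with AMG at 1, 5, 12 and 24 h, against 217, 82.0, 83.4 and 102 without. Its ratio went down from 85.3 (95% interval 75.2 to 97.2) at 1 h to 28.8 (24.2 to 34.5) at 24 h. Il6 had 3262, 746, 740 and 393 with AMG against 31.6, 31.1, 9.51 and 23.0 without. Its ratio was 103 (74.2 to 148), 23.9 (15.2 to 40.0), 77.8 (45.2 to 147) and 17.1 (11.8 to 25.7), the third of these resting on 13 untreated reads. The treated level of Il6 at 5 and 12 h was almost the same, and the change in the ratio between those times came with the lower untreated level at 12 h.

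Il11 and Clcf1 were highest at 1 h in both groups and declined with time in the untreated wounded cells too. The 5 h to 1 h ratio of treated Il11 was 0.753, with its 1 h level from a library with a large ribosomal protein share. Its highest time is uncertain to that extent. Untreated Il11 had 2886, 980, 354 and 157 normalised counts, 18.4 times less at 24 h than at 1 h, and treated Il11 had 7136, 5374, 1709 and 661, 10.8 times less. Its ratio was 2.47 (95% interval 2.36 to 2.59) at 1 h, 5.48 (5.04 to 5.97) at 5 h, 4.82 (4.36 to 5.34) at 12 h and 4.21 (3.60 to 4.94) at 24 h. The largest separation of Il11 thus came at 5 h rather than at 1 h, also after the length correction (log2 ratio 2.76 at 5 h and 1.06 at 1 h). Clcf1 had 5686, 2103, 1697 and 1510 without and 11546, 3425, 1988 and 1882 with AMG, and its ratio went from 2.03 at 1 h through 1.63 to 1.17 at 12 h and 1.25 at 24 h. After the length correction its log2 ratio was 0.67 at 1 h and 1.11 at 5 h, so the order of these times turned and only 4 members stayed above 1 at 1 h. Ctf1 differed in direction, at 69.4, 120, 108 and 136 without and 60.9, 50.3, 41.9 and 72.0 with AMG. Its ratio before the length correction was 0.877 (0.571 to 1.32) at 1 h, within counting error of 1. Later it was 0.420 (0.296 to 0.595), 0.387 (0.270 to 0.545) and 0.531 (0.403 to 0.696). As log2 ratios, in order of time, these were -0.19, -1.23, -1.35 and -0.90, and the length corrected ones were -0.78, -0.61, -1.22 and -1.09. Ctf1 was thus lower with AMG at 5, 12 and 24 h, while at 1 h its direction was not settled by the counts. Its smaller difference at 1 h than at 5 h was not kept after the correction.

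**Figure D3:**
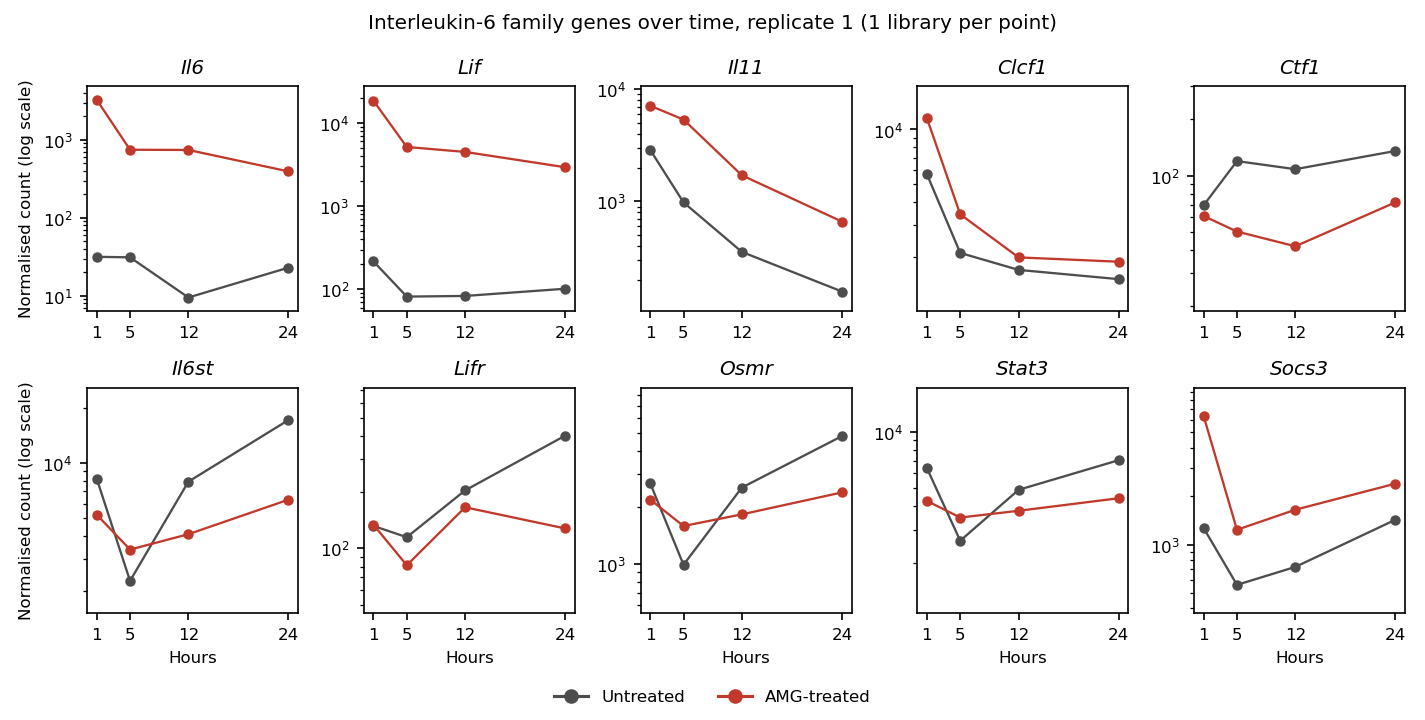
Normalised counts (log scale) of the 10 genes at 1, 5, 12 and 24 h in replicate 1, with 1 Untreated and 1 AMG-treated library per time and no error. Treated Il6, Lif, Il11, Clcf1 and Socs3 start highest at 1 h and lie above the untreated line at each time. Untreated Il6st, Osmr and Stat3 dip at 5 h and are highest at 24 h. The untreated 5 h and treated 1 h libraries are those with the large ribosomal protein shares, and levels are not length corrected.

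The receptor chains took another course, with untreated levels highest at 24 h. Their untreated 5 h levels come from the library with the large ribosomal protein share. A dip at that time cannot be told from a trait of that library. Untreated Il6st had 8217, 2267, 7903 and 17162 normalised counts at 1, 5, 12 and 24 h, and treated Il6st had 5215, 3361, 4079 and 6298. The treated level was lower at each time except 5 h, and the log2 ratios were -0.66, 0.57, -0.95 and -1.45, or -0.15, -0.17, -1.13 and -1.22 after the length correction. Osmr had 2696, 987, 2553 and 4807 without and 2203, 1590, 1835 and 2404 with AMG, with log2 ratios of -0.29, 0.69, -0.48 and -1.0, of which the first was 0.09 after the correction. Lifr had 132, 115, 204 and 401 without and 134, 81.2, 166 and 128 with AMG, and its ratio was 1.02 (95% interval 0.761 to 1.35) at 1 h and 0.319 (0.263 to 0.385) at 24 h. The log2 ratios of Lifr were 0.02, -0.49, -0.30 and -1.64, or 0.52, -1.20, -0.47 and -1.42 after the length correction. All 3 receptor chains were thus furthest below the controls at 24 h.

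Of the signalling genes, Socs3 was higher with AMG at each time, and Stat3 was lower at each time but 5 h. Stat3 had 6397, 2618, 4897 and 7051 normalised counts without and 4272, 3481, 3783 and 4415 with AMG, and its log2 ratio was -0.58, 0.41, -0.37 and -0.68, or -0.15, -0.05, -0.46 and -0.55 after the length correction. Socs3 had 1267, 561, 725 and 1427 without and 6328, 1236, 1649 and 2398 with AMG. Its ratio was 4.99 (95% interval 4.70 to 5.31) at 1 h, 2.21 (1.96 to 2.49) at 5 h, 2.27 (2.10 to 2.46) at 12 h and 1.68 (1.58 to 1.78) at 24 h. The treated level of Socs3 was highest at 1 h, as it was for the ligands Il6, Lif, Il11 and Clcf1. These 1 h levels all come from the treated library with the large ribosomal protein share.

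Some transcripts had profiles close to those of Il6, Lif and Socs3. Likeness was measured as Pearson's r on log2(normalised count + 1) over the 8 libraries of replicate 1, which share the treatment and the time, and it is a description only. Il6 was most like Cxcl2, a neutrophil chemokine (r = 0.99), Lif (0.99) and Nod2, a sensor of bacterial cell wall (0.98), and over the 6 libraries of replicates 2 to 4 r was 0.84, 0.90 and 0.67. Lif was most like Zc3h12a, which encodes the RNase regnase-1 (0.99), Cxcl2 (0.99) and Il6 (0.99), with 0.99, 0.99 and 0.90 in the other 6 libraries. Socs3 was most like Nfkbid, a member of the IkB family (0.94), Hist1h2be (0.93) and Gm16793 (0.91), with 0.93, 0.31 and 0.77 in the others, so the likeness to Hist1h2be was weak there.

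The other genes of the pathway were counted at 5 h in replicates 2 to 4 in 5 lists. Of 7 further ligands 0 reached the minimum level, and 5 had at most 3 reads in every library of these replicates, among them Osm, which encodes oncostatin M. Of 5 further receptor chains 4 were tested and 0 passed with or without the block, with a median of 0.52. Il6ra, the chain that binds IL-6 itself, was low, at 20 ± 10.9 normalised counts without and 18.0 ± 14.2 with AMG (SD, n = 3). Il11ra1, which binds IL-11, was at 403 ± 50.6 and 516 ± 110.

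Of 7 kinases and other STATs, 1 was higher and 0 lower, where 0.970% and 0.267% of all tested genes were, with a median of -0.07. The one that passed was Stat5a, which encodes a related transcription factor, at 390 ± 24.2 without and 673 ± 27.5 with AMG (log2 fold change 0.79, SE 0.13, limma adjusted p = 0.0438), and it overlaps Stat3 on the other strand. Jak1, Jak2 and Tyk2, the kinases of the receptors, had log2 fold changes of -0.26, -0.07 and 0.20 and did not pass. Of 9 other inhibitors 0 passed, with a median of 0.06. With the block 4 were higher (Socs1, Ptpn1, Ptpn2 and Socs5) and 1 lower (Pias3), where 17.9% and 19.3% of all tested genes were. None of them was called by edgeR on 4 replicates with the block. Socs1, a close relative of Socs3, had 28.0 ± 9.34 without and 66.8 ± 26.9 with AMG (log2 fold change 1.18, limma adjusted p = 0.179, with block 0.0175).

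Of 16 STAT3 target genes, 2 were higher and 0 lower, where 0.970% and 0.267% of all tested genes were, and the median was 0.88. Bcl3, a coactivator of NF-kB, rose from 57.0 ± 17.8 to 271 ± 89.4 (log2 fold change 2.22, limma adjusted p = 0.0402), and Myc, the growth regulator, from 1265 ± 57.3 to 2176 ± 151 (0.78, adjusted p = 0.0375). With the block in replicates 2 to 4, 12 of the 16 were higher and 0 lower, where 17.9% of all tested genes were higher. Of these 12, 6 were lower with AMG in replicate 1 at 5 h (Cebpb, Junb, Mcl1, Lcn2, Saa3 and Timp1). In that pair the ratios rose with transcript length across genes (Spearman rho 0.48). No length corrected ratios are given for these 6 genes. With edgeR on 4 replicates and the block, 4 of the 16 were called higher (Bcl3, Cebpd, Myc and Steap4), where 2.49% of all tested genes were. The calls of Bcl3, Myc and Stat5a were lost when any library but AMG-treated replicate 3 was left out. Steap4, a metalloreductase, named after its values were seen, had the largest value at 3.92 (limma adjusted p = 0.0538), from 5.95 ± 2.49 to 124 ± 77.9. Pim1, a kinase gene often used as a STAT3 readout, was at 342 ± 118 and 366 ± 215, a log2 difference of -0.01 (limma adjusted p = 0.997). In replicate 1 the log2 ratio of Pim1 was 2.28 at 1 h and -0.59, -0.30 and -0.58 at 5, 12 and 24 h. Each of these ratios rests on 1 library per group. Many of these genes also answer to other factors, and the phosphorylation of STAT3 was not measured in these libraries.

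**Figure D4:**
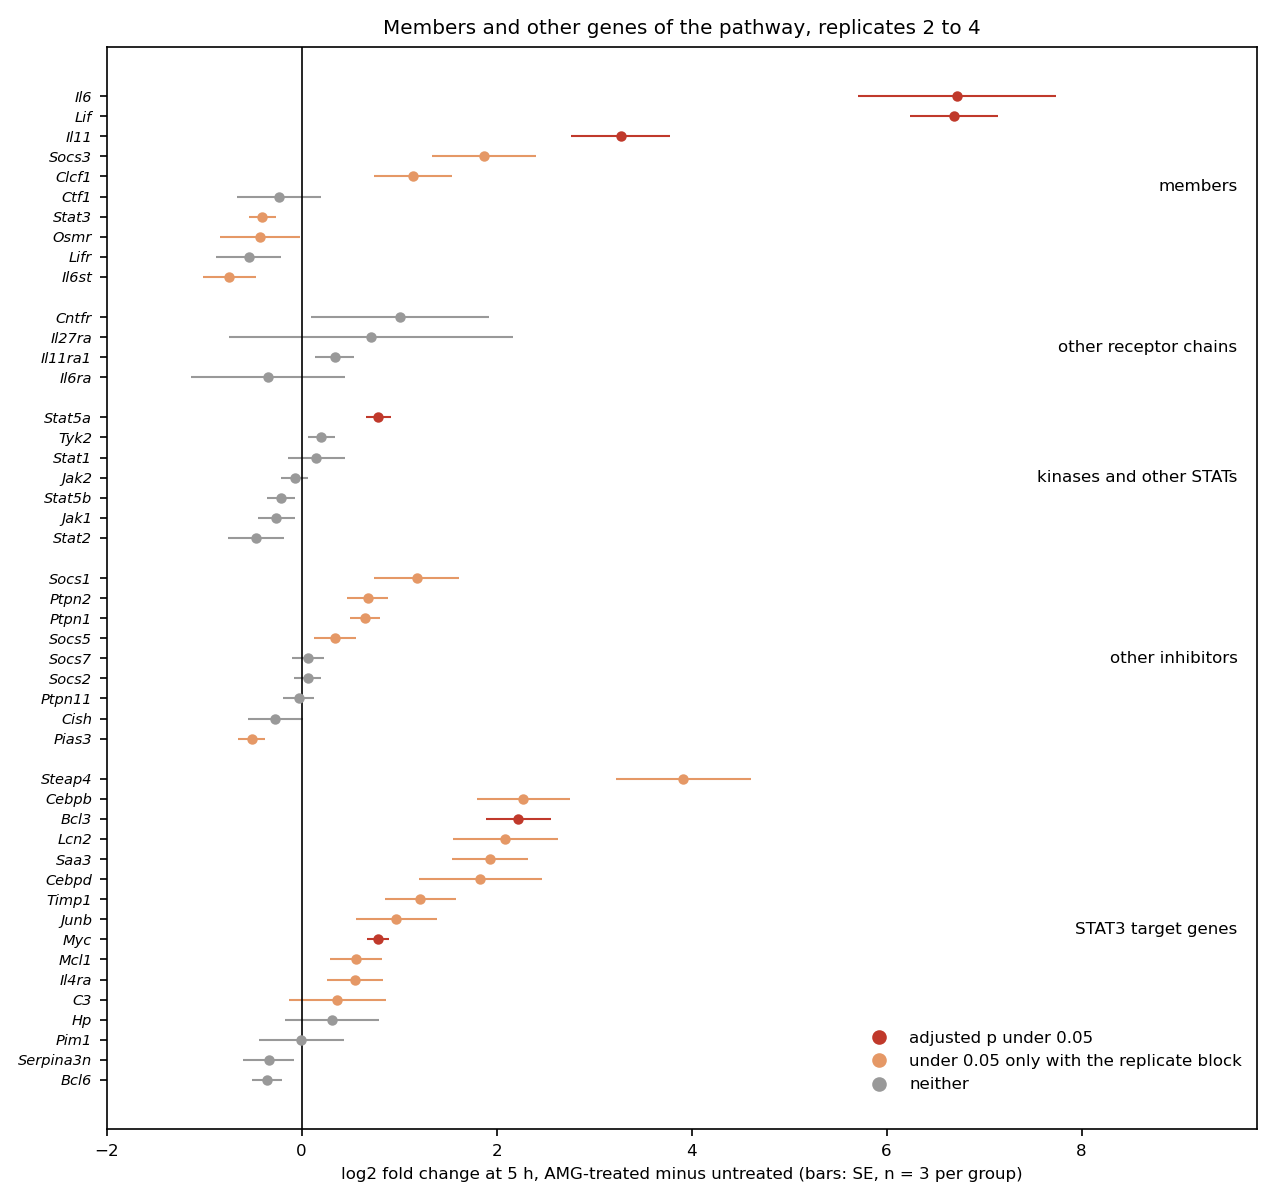
log2 fold change at 5 h (AMG-treated minus untreated, bars show the SE, n = 3 per group) of the 10 members and the tested genes of 4 further pathway lists, coloured by the limma test. Il6, Lif, Il11, Stat5a, Bcl3 and Myc passed without the block, and most STAT3 target genes passed only with it in replicates 2 to 4, 6 of them being lower with AMG in replicate 1. Those replicate 1 ratios were taken at 5 h without the length correction, in a pair where ratios moved with transcript length.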

How the data were processed

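RNA of 14 libraries was prepared by the authors with a stranded poly(A) kit, sequenced as single-end reads, aligned with TopHat 2.0.13 to mm10 (unique reads kept) and counted per gene with HTSeq 0.5.3p3. Annotation release and strand setting were not given in the sources used here. The deposited values are a normalised signal, read counts divided by a size factor in 2 tables (replicate 1, and replicates 2 to 4), so levels were not compared across tables. All values above 0 came out as whole reads within 0.1 once the size factor was undone. Of 43472 genes, 13096 with a mean of at least 10 were tested with limma 3.58.1 (R 4.3.3, trend) on log2(value + 1), 3 against 3 libraries, two-sided, with Benjamini-Hochberg adjustment. Deviations from group means correlated at 0.65, 0.76 and 0.70 for libraries of the same number and at -0.59 to 0.12 otherwise, so the replicate number was also used as a block. Alternatives were DESeq2 1.42.0 and edgeR 4.0.16, run on recovered whole reads, other pseudocounts, filters and scaling, a length correction and leaving out each library. Ratio intervals are exact (Clopper-Pearson, 95%), and since reads carry no molecular identifiers, intervals and floors cover counting error only. The study's methods named no block. Positions and exon lengths are from GENCODE. Emr1, an older symbol, was read for the marker Adgre1. All members were named, and 1 gene of the lists is not reported here. Of the lists, every gene past the threshold was named, up to the 6 largest per list, and for Il6, Lif and Socs3 the 3 genes of highest r. Other list genes given by name were chosen after their values were seen. The members and lists were chosen with earlier results of these data known.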

Additional observations from a re-analysis of the deposited data

Results flagged for a closer look

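At 5 h the log2 ratio of Il6st in replicate 1, 0.57, stood far from those of replicates 2 to 4 (-0.80, -0.61 and -0.82). It was the only one of 10 genes for which 1 of the 4 replicates stood out by Dixon's test, and chance flags about 1 in 20 such groups. The pair holds Untreated 5h replicate 1, with 7.0% of reads in ribosomal protein genes, and the value after the length correction was -0.17.

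Within replicate 1, 3 genes had opposite directions at 5 h and 24 h. The log2 ratio was 0.57 at 5 h and -1.45 at 24 h for Il6st, 0.69 and -1.0 for Osmr, and 0.41 and -0.68 for Stat3. Each value rests on 1 library per group, and the difference between times was not tested.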

How the results depend on the processing

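The counts of calls at 5 h depended on the fit more than the fold changes did. Higher genes numbered 127 and became 2345 with the replicate block, 56 without the trend, 854 with DESeq2, 2416 with edgeR and the block, 326 with edgeR on 4 replicates with the block, 2228 with length correction and block, and 1 to 1146 when 1 library was left out. Lower genes numbered 35 and became 2527 with the block, 580 with DESeq2, 2436 with edgeR and the block, 169 with edgeR on 4 replicates with the block, 1971 with length correction and block, and 0 to 1054 with 1 library left out. The highest of these counts came without AMG-treated replicate 3, and the lowest without AMG-treated replicate 2 (for lower genes also without AMG-treated replicate 4 and Untreated replicates 2 and 4). Members called higher were 3, and 5 with the block, with DESeq2, with edgeR and the block, with edgeR on 4 replicates with the block and with length correction and block, 1 without the trend and 1 with edgeR without the block. They were 0 to 4 with 1 library left out. Members called lower were 0, and 3 with the block, 3 with edgeR and the block, 1 with length correction and block, and 0 to 1 with 1 library left out. In the pathway lists 3 genes were higher, and 17 with the block, 0 without the trend, 10 with DESeq2, 18 with edgeR and the block, 5 with edgeR on 4 replicates with the block, 18 with length correction and block, and 0 to 12 with 1 library left out. Lower ones were 0, and 1 with the block, with DESeq2, with edgeR and the block and with length correction and block.

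No fold change of a member turned its direction in replicates 2 to 4 under the 20 alternatives. In single pairs the length correction turned Il6st at 5 h in replicate 1 to -0.17, Stat3 at 5 h in replicate 1 to -0.051 and Osmr at 1 h in replicate 1 to 0.094. It also turned Ctf1 at 5 h in replicate 4 (0.14 to -0.16) and Lifr at 5 h in replicate 2 (-0.16 to 0.17). It raised the members below -1 at 12 h from 1 to 2 and at 24 h from 2 to 3, moved those above 1 from 5 to 4 at 1 h and from 4 to 5 at 5 h, and raised those lower in all 4 replicates from 1 to 3. The cause was not tested. Il6 missed the threshold with a pseudocount of 0.1 (adjusted p = 0.0531), without the trend (0.0686) and with edgeR (0.0559), and Il11 without the trend (0.0756) and with edgeR (0.0501). Low untreated counts limit Il6 most, with 1 to 18 untreated reads in replicates 2 to 4. The 1 read was in the deepest library, Untreated 5h replicate 4 (34696529 reads), so the low counts did not follow depth. Times other than 5 h have no replicates.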
